A study of Arabidopsis thaliana with 8 samples.

Results

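In inflorescences of Arabidopsis thaliana, 136 nuclear genes had higher normalised expression after digestion with the exonuclease RNase R in the debranching mutant dbr1-2. On the scale of the rule below, they had little or no such gain in wild-type Col-0. They were chosen from 30668 nuclear loci that carry a single gene name used once, out of 32232 loci in all. The rule took the mean FPKM (fragments per kilobase of transcript, scaled to library size) of each group, added 1, and formed the log2 ratio of the value with RNase R to the value without it. Members had a ratio of at least 1.5 in dbr1-2 and at most 0.5 in Col-0, and 5 genes (AT2G31300, AT1G66260, AT5G37720, AT3G13570 and AT3G20550) were left out by name. These ratios, and the difference between genotypes with RNase R, are therefore a description of the choice, with no test. The added 1 lowers the ratio of low genes. The member AT2G01175, for example, rose in Col-0 from a mean of 0.115 to 0.576 FPKM at a ratio of 0.499.

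The study sequenced 8 libraries in 4 groups of 2. Col-0 is the wild type in the Columbia background, and dbr1-2 is a mutant of DBR1 whose lesion was not given in the sources used here. Plants of both genotypes grew at 22 °C under 16 h light and 8 h dark, and total RNA of inflorescences was depleted of ribosomal RNA in every group. In the 2 groups with RNase R the depleted RNA was digested for 2 h at 37 °C, and the other 2 groups, 1 per genotype, were not, per the labels; they are called digested and undigested here. The tag of 1 library, digested dbr1-2 replicate 1, names removal of ribosomal RNA alone, while those of the other 7 add mRNA. Libraries of a genotype share a sample code in their tags, so the libraries of a group may not come from separate plants, and their spread may be technical.

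Splicing releases each intron as a lariat, a loop closed by a 2′-5′ bond at the branchpoint. DBR1 is the debranching enzyme that opens this loop so that the intron can be degraded. RNase R digests linear RNA from its 3′ end, whereas closed loops, those of lariats and of circular RNAs, withstand it. In plants and animals, loss of debranching leads to lariats that persist. FPKM per gene adds all reads of a gene's annotated transcripts and does not separate an intron loop, a circular RNA and an mRNA, so the values below are gene totals. Floral genes of the inflorescence were present: PI, a petal and stamen identity factor, was at 14.8 to 21.3 FPKM in the 4 libraries without RNase R, and AP1, AP3, AG and SEP3 were at 3.83 FPKM or more there. LFY stayed at 0.296 FPKM or less, and the 3 seed and 2 root markers reached at most 0.0647 FPKM in any library.

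Libraries summed to 295494 to 384482 FPKM without RNase R and to 2796449 to 4003096 with it. From the steps between low values, 1 FPKM on 1 kb stood for 74.3 to 89.6 reads without RNase R and for 8.67 to 12.7 reads with it. Among the 44 members with a single annotated transcript, the median was 254 to 303 reads per library without RNase R. It was 37.6 and 29.2 reads in digested Col-0 and 253 and 256 in digested dbr1-2, so the Col-0 values after digestion are the least precise. Among the digested libraries both of Col-0 carry the later tag year and both of dbr1-2 the earlier, so tag year and genotype cannot be told apart there. A lower share of a cell type and less RNA per cell also cannot be told apart in these bulk samples.

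The 136 genes were lowly expressed in every group except dbr1-2 with RNase R. Their median group mean was 1.92 FPKM in undigested Col-0, 2.46 in undigested dbr1-2, 2.02 in digested Col-0 and 11.6 in digested dbr1-2. Summed over all members, the libraries held 393 and 386 FPKM in undigested Col-0 and 498 and 460 in undigested dbr1-2. The sum was 376 and 379 FPKM in digested Col-0 and 2530 and 2239 in digested dbr1-2. By summed FPKM, only the 2 dbr1-2 libraries with RNase R thus stood apart. As a share of the library total the members did not gain there. They made up 0.0632% and 0.0614%, less than the 0.117% to 0.144% of the undigested libraries. The lowest shares, 0.0134% and 0.0101%, were those of digested Col-0.

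Per gene, both dbr1-2 libraries with RNase R lay above all 6 others in 133 of the 136 members, against 12.6% of the 13273 nuclear genes past a filter of at least 1 FPKM in at least 2 of 8 libraries. In these genes the lower of these libraries was at least 2-fold above the highest of the other 6, apart from AT4G06701, AT5G20700 and AT4G12840. There it was 1.26-fold, 1.46-fold and 1.70-fold above. Since the rule used these libraries, nothing is read from the count of 133. The median log2 ratio was 1.76 in dbr1-2 and 0.05 in Col-0, beside −0.71 and −0.67 over the 13273 genes. In dbr1-2 the ratio reached at least 2 in 44 members, at least 2.5 in 17 and at least 3 in 6. Of the 13273 genes, 2.58% passed the threshold of dbr1-2, 96.1% that of Col-0 and 1.02% both, the last share counting 3 of the genes left out by name. A further 74 nuclear genes had a ratio of at least 1.5 in both genotypes, and 7 had the pattern in Col-0 only.

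**Figure D1:**
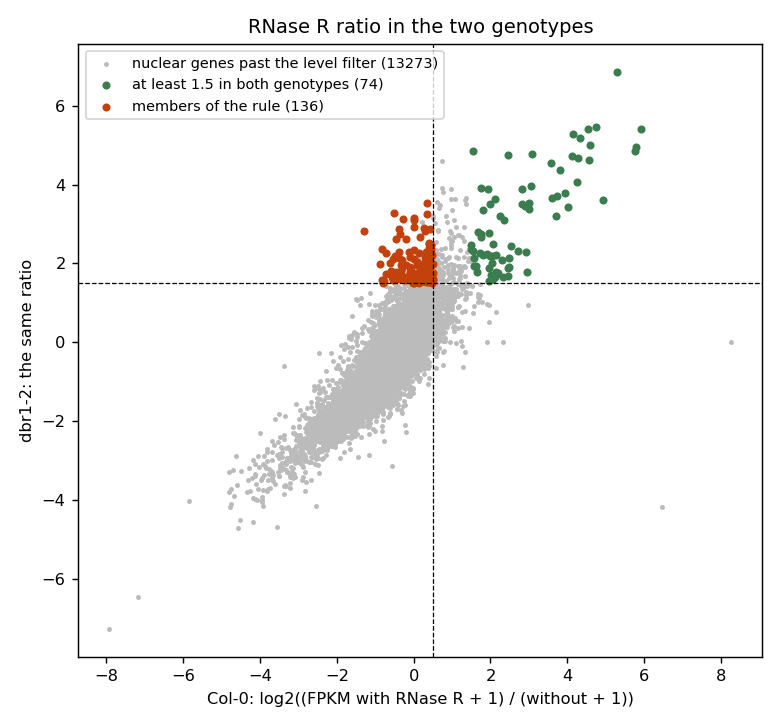
Each point is a nuclear gene, with the log2 ratio of FPKM + 1 with over without RNase R in Col-0 on the horizontal axis and in dbr1-2 on the vertical axis; dashed lines mark the thresholds of 0.5 and 1.5. The 136 members (orange) fill the upper left field by construction. Green marks genes past the filter at 1.5 or more in both genotypes, and the bulk of genes (grey) lies below 0 on both axes.

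The highest ratio belonged to AT4G27620 (chromosome 4, 13788766 to 13791052, minus strand), annotated as an intracellular protein transporter. It stood at 1.83 and 1.74 FPKM in undigested Col-0 and 1.95 and 1.88 in undigested dbr1-2. After digestion it stood at 2.40 and 2.68 FPKM in Col-0 and 34.3 and 30.8 in dbr1-2. Both dbr1-2 libraries were far above the other 6, whose values lay close together, and the ratio was 3.52 in dbr1-2 and 0.35 in Col-0.

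Next was AT3G20430 (chromosome 3, 7121062 to 7123203, plus strand), which encodes a protein like PHAX, in animals the adapter that exports small nuclear RNAs from the nucleus. It was nearly silent outside that group, with 0.669 and 0.511 FPKM in undigested Col-0 and 0.846 and 0.343 in undigested dbr1-2, and 0 and 0.215 in digested Col-0. The dbr1-2 libraries with RNase R held 22.5 and 6.28 FPKM and so differed more than 3-fold from each other, as 12 members did by over 2-fold. The gene overlaps EMB2729 on the other strand.

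**Figure D2:**
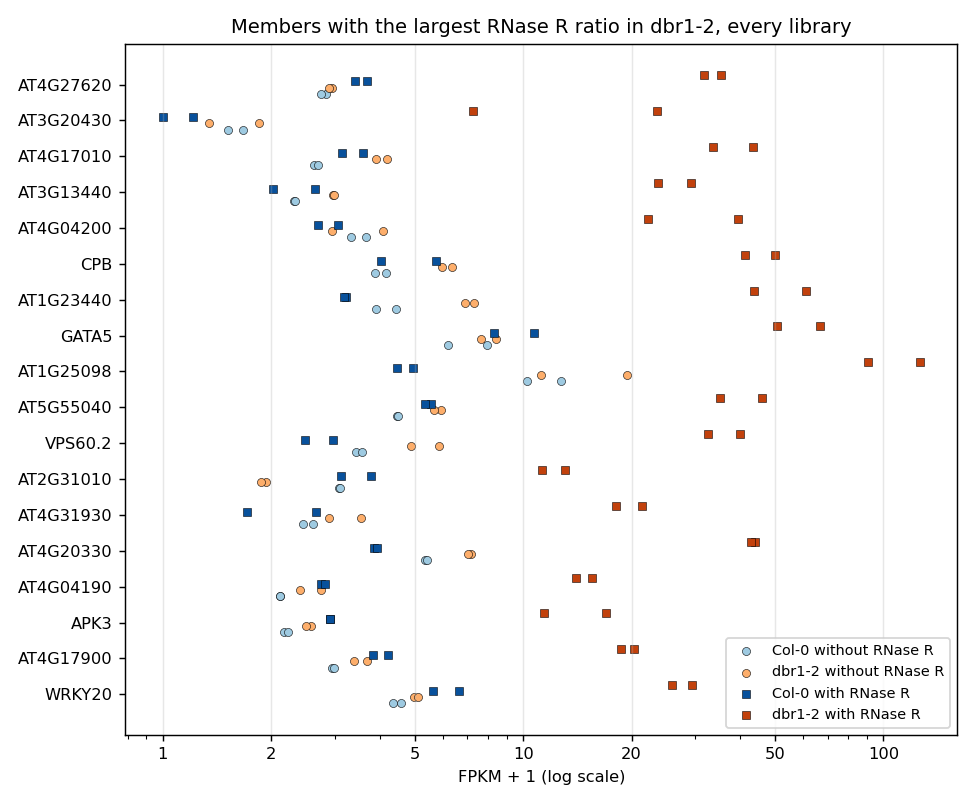
FPKM + 1 on a log axis in each library for 18 of the 20 members with the largest RNase R ratio in dbr1-2 and a mean of at least 5 FPKM there; the other 2 were at 0 in 7 libraries. Each row has 2 circles per genotype without and 2 squares per genotype with RNase R, and the orange squares of dbr1-2 with RNase R lie to the right of all other points in each row.

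Genes of basal transcription were among the highest. AT4G17010 (chromosome 4, 9575812 to 9577967), annotated as transcription factor IIIB, the factor that recruits RNA polymerase III, was at 1.63 and 1.70 FPKM in undigested Col-0 and 3.19 and 2.90 in undigested dbr1-2. It was at 2.13 and 2.59 FPKM in digested Col-0 and 42.4 and 32.8 in digested dbr1-2. AT4G20330 (chromosome 4, 10982517 to 10984521, minus strand) encodes the beta subunit of TFIIE, which helps RNA polymerase II to open promoters. Its libraries held 4.33 and 4.41 FPKM in undigested Col-0 and 6.17 and 6.02 in undigested dbr1-2, then 2.84 and 2.92 in digested Col-0 and 42.9 and 41.9 in digested dbr1-2. The gene of the alpha subunit, AT4G20340 (10984618 to 10988008, plus strand), is its neighbour and also a member, at 0.963 ± 0.098 FPKM without and 9.35 ± 3.9 with RNase R in dbr1-2 (SD, n = 2) against 0.695 ± 0.082 and 1.23 ± 0.071 in Col-0. Both share a single listed interval in the deposited table, so reads may have been divided between them. AT4G17010 overlaps AT4G17020, and AT4G20330 overlaps AT4G20325, on the other strand, and use of the strand in counting was not given in the sources used here.

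A methyltransferase, the SPC25 genes and an actin-capping subunit were also members. AT3G13440 (chromosome 3, 4377097 to 4379575), a methyltransferase that uses S-adenosylmethionine, was at 1.31 and 1.32 FPKM in undigested Col-0 and 1.96 and 1.98 in undigested dbr1-2. After digestion it was at 1.65 and 1.02 FPKM in Col-0 and 28.3 and 22.7 in dbr1-2. AT4G04200 (chromosome 4, 2027165 to 2029013) encodes SPC25, a subunit of the signal peptidase that trims proteins entering the endoplasmic reticulum. It was at 2.66 and 2.33 FPKM in undigested Col-0 and 3.09 and 1.96 in undigested dbr1-2, where the genotypes overlap, and at 1.70 and 2.06 in digested Col-0 and 38.4 and 21.2 in digested dbr1-2. A further SPC25 gene, AT2G39960, had a smaller dbr1-2 ratio of 1.59 at a higher level, with 9.41 and 10.2 FPKM in undigested Col-0 and 13.8 and 12.5 in undigested dbr1-2, and 9.37 and 7.38 in digested Col-0 and 48.9 and 34.3 in digested dbr1-2. CPB (AT1G71790, chromosome 1, 26996805 to 26999067), the beta subunit of the protein that caps actin filaments, had 2.89 and 3.15 FPKM in undigested Col-0 and 4.96 and 5.33 in undigested dbr1-2. After digestion its values were 4.73 and 3.04 FPKM in Col-0 and 48.9 and 40.3 in dbr1-2. In all of these, the dbr1-2 libraries with RNase R shared no range with any other group.

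In some members the Col-0 libraries were lower with RNase R than without it. AT1G23440 (chromosome 1, 8321611 to 8324497), a pyroglutamyl peptidase-like protein, had 3.44 and 2.92 FPKM in undigested and 2.23 and 2.18 in digested Col-0. In dbr1-2 it had 5.91 and 6.30 FPKM before digestion and 60.1 and 42.8 after it. VPS60.2 (AT5G04850, chromosome 5, 1407940 to 1409935), of the SNF7 family that remodels endosomal membranes, had 2.44 and 2.57 FPKM in undigested and 1.48 and 1.97 in digested Col-0. Its dbr1-2 values were 4.85 and 3.89 FPKM before and 31.5 and 39.1 after digestion, and it overlaps AT5G04840 on the other strand. The non-coding RNA AT1G25098 (chromosome 1, 8812695 to 8815264) had the lowest ratio of Col-0 among the members, −1.29, at 11.8 and 9.27 FPKM without and 3.95 and 3.48 with RNase R. In dbr1-2 it was at 18.5 and 10.2 FPKM without and 125 and 89.4 with RNase R. AT1G25098 overlaps annotated genes on both strands, both listed at 0 in all 8 libraries.

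Over all members, both Col-0 libraries with RNase R lay below both without it in 39 genes, beside 81.2% of the 13273 genes, and above them in 56, beside 9.43%. In the other 41 the Col-0 groups overlapped. The rule limits the Col-0 ratio from above only, and its effect on these shares was not separated.

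The deposited values hold no counts of introns. In the RefSeq annotation, which may not be the one the authors counted over, some introns lie inside an exon of another transcript of the same gene, so that the gene's exonic length holds them. The stretches printed here come from the RefSeq TAIR10.1 genome, are read 5′ to 3′ on the gene's strand, and show such introns of the highest members outside annotated untranslated regions, beside an intron of CPB that no exon covers. Capitals mark the first or last 2 bases of the intron where the stretch holds them. AT4G27620 has the 396-nt intron chr4:13789748-13790143 (minus strand), the third of 3, which 2 transcripts splice and 1 keeps in an exon, and the stretch is its last 100 bases. VPS60.2 has the 111-nt intron chr5:1408710-1408820 (minus strand), the fifth of 6, spliced in 1 transcript and kept in the other. APK3 has the 93-nt intron chr3:1003423-1003515 (minus strand), which begins with GC in place of the usual GT, and the stretch is its first 57 bases. CPB has the 295-nt intron chr1:26998407-26998701 (plus strand), the last of 7, in its only transcript.
AT4G27620: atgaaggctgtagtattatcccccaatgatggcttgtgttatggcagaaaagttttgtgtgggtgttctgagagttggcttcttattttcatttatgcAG
VPS60.2: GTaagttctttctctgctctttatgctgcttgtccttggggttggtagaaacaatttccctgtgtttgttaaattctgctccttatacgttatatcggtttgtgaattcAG
APK3: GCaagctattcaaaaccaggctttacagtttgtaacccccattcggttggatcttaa
CPB: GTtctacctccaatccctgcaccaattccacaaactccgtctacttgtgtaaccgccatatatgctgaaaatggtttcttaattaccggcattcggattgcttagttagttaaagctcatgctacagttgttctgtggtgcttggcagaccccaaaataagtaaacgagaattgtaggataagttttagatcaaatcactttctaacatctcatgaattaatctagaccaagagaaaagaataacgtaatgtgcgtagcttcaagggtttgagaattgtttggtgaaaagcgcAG

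Gene structure was not used by the rule. Of the 129 protein-coding members, 54 (41.9%, 95% Wilson interval 33.7% to 50.5%) had an annotated intron that lies wholly inside an exon of the same gene. The share was 28.9% of the 13002 protein-coding genes past the filter and 29.0% of the 62 that were at 1.5 or more in both genotypes. For such introns of at least 300 nt, a length chosen after the values were seen, the share was 25 of 129 (19.4%, 13.5% to 27.0%) beside 6.45% and 3.23%. Members also had more annotated transcripts: 63.6% had at least 2, beside 49.8% of the genes past the filter. Within genes with at least 2 transcripts the share with any intron inside an exon was 65.9% (55.1% to 75.2%) of 82 members beside 58.1% of 6470 genes, and that with one of at least 300 nt was 30.5% (21.6% to 41.1%) beside 12.97%. These intervals cover counting error only, genes are not replicates, and no test was made.

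Read the other way, members were 0.147% of filtered protein-coding genes with no intron, 0.9% of those with introns of which none lies in an exon, 0.994% of those with a shorter intron inside an exon and 2.98% of the 839 with one of at least 300 nt. The median difference between genotypes of the RNase R ratio over all genes of these classes was −0.075, −0.004, 0.012 and 0.221. The class with long introns inside exons was the one whose median lay furthest above 0, for members and other genes pooled. The median member had 6 introns, its longest intron was 389 nt and its introns summed to 1146 nt, beside 5, 313 nt and 804 nt over the filtered genes. Exon length was alike, with medians of 1823 and 1814.5 nt.

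**Figure D3:**
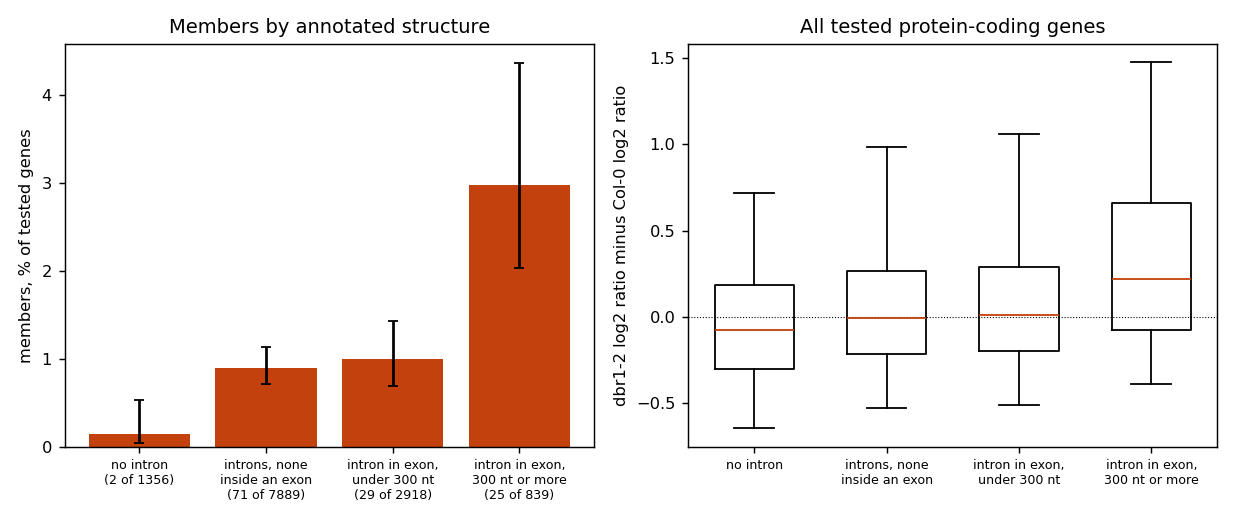
Left, members as a percentage of filtered protein-coding genes in 4 classes of annotated gene structure, with 95% Wilson intervals; right, the dbr1-2 minus Col-0 difference of the log2 RNase R ratio over all genes of each class (line, median; box, quartiles; whiskers, 5th to 95th percentile). Genes with an intron of at least 300 nt inside an exon held 25 members among 839 genes (2.98%), and their median difference was 0.221.

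The 5 members with the longest intron inside an exon were ABS2 (1092 nt), AT4G30820 (899 nt), NAC075 (815 nt), AT3G47490 (755 nt) and AT3G52660 (740 nt). ABS2 (AT2G36080, chromosome 2, 15148259 to 15151634), a B3-domain transcription factor, was at 1.25 and 1.19 FPKM in undigested Col-0 and 2.69 and 2.57 in undigested dbr1-2. After digestion it was at 1.45 and 0.999 FPKM in Col-0 and 10.2 and 8.96 in dbr1-2. NAC075, a NAC-domain transcription factor, was far lower, with 0.386 and 0.352 FPKM in undigested Col-0 and 0.351 and 0.294 in undigested dbr1-2, then 0.298 and 0.359 in digested Col-0 and 2.87 and 2.98 in digested dbr1-2. AT4G30820, a factor of CDK-activating kinase assembly with 27 annotated transcripts, stood just inside the threshold of Col-0 with a ratio of 0.50 there and 1.98 in dbr1-2.

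A short motif of the plant branchpoint type (the letters CTAAC, the letters CTAAT, the letters CTGAC or the letters CTGAT, on the gene's strand, between 50 and 11 bases before the 3′ end) was present in 25.03% of 931 member introns of at least 60 nt. It was present in 25.2% of 82322 introns of the filtered genes, so the shares were alike, and it was absent from that window in the 4 introns above. Introns that begin with GT and end with AG made up 97.7% of the member introns and 98.7% of the others.

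Members were grouped by annotated function into 7 classes that hold 56 of them. The classes were drawn up after the values had been seen, so their makeup is not a finding. The largest holds 16 transcription factors and other regulators of transcription. Their dbr1-2 means after RNase R ran from 2.92 to 57.8 FPKM and their Col-0 means from 0.328 to 8.52. GATA5 (AT5G66320), a GATA zinc-finger factor, was the highest of them at 5.17 and 6.96 FPKM in undigested Col-0 and 6.64 and 7.41 in undigested dbr1-2, and 7.32 and 9.73 in digested Col-0 and 65.9 and 49.7 in digested dbr1-2. WRKY20 stood at 3.35 and 3.58 FPKM in undigested Col-0 and 3.98 and 4.10 in undigested dbr1-2, then 5.65 and 4.61 in digested Col-0 and 28.5 and 24.9 in digested dbr1-2. For WRKY20 the Col-0 values with RNase R also lay above those without it, although less than for dbr1-2. The class further holds IAA18, a repressor of auxin response, NF-YA1, a CCAAT-binding subunit, ABF2, a bZIP factor of abscisic acid response, and SPL7, a regulator of copper response, with dbr1-2 ratios of 2.28, 2.28, 1.91 and 1.57. NF-YA1 is among the members whose dbr1-2 libraries with RNase R lay far apart, at 25 and 9.10 FPKM. AT4G17900, a PLATZ zinc-finger protein, had a ratio of 2.46, and MYB43 was the member nearest to the threshold.

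Of RNA processing there were 9 members, with dbr1-2 means after RNase R of 5.31 to 14.4 FPKM. ESP4, a symplekin-like protein of mRNA 3′-end formation, was at 2.36 and 2.75 FPKM in undigested Col-0 and 3.62 and 3.09 in undigested dbr1-2, and at 1.75 and 1.70 in digested Col-0 and 12.8 and 11.6 in digested dbr1-2. The RNA helicase RH1 had ratios of 1.74 in dbr1-2 and 0.03 in Col-0, and the RNA-recognition protein AT3G52660 had 1.67 and −0.43. Splicing factors of the SR family, which bind exons and help to define splice sites, gave no member: of 18 listed genes 17 are in the table once, and none met the rule after the exclusions. SCL30a (AT3G13570) met both thresholds but is among the genes left out by name. RS40 was above 1.5 in dbr1-2 and at 1.32 in Col-0, and RS2Z32 was at 0.79 and −0.97. Of 14 listed genes of lariat turnover and branchpoint recognition none was a member, and their median ratios were −0.31 in dbr1-2 and −0.54 in Col-0. DBR1 itself was at 0.662 and 0.694 FPKM in undigested Col-0 and 0.339 and 0.430 in undigested dbr1-2, and at 0.202 and 0.188 in digested Col-0 and 0.265 and 0.260 in digested dbr1-2.

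The 10 members of actin and membrane traffic include CPB, VPS60.2 and both SPC25 genes. The mu subunit of the adaptor complex AP-4 (AT4G24550), which sorts cargo at the trans-Golgi network, was at 5.38 and 4.94 FPKM in undigested Col-0 and 7.12 and 7.11 in undigested dbr1-2. After digestion it was at 3.77 and 3.76 FPKM in Col-0 and 30.8 and 46.6 in dbr1-2. ELM1, needed for fission of mitochondria, had ratios of 2.17 in dbr1-2 and 0.38 in Col-0, and the ARF GTPase-activating protein AGD5 had 1.58 and 0.25. EXO70G2, of the exocyst, was the weakest of the class, at 0.0917 FPKM or less in each library without RNase R and at 1.42 and 2.90 in dbr1-2 with it.

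Kinases gave 7 members, with dbr1-2 means after RNase R of 5.11 to 32.2 FPKM. VIK (AT1G14000), a MAP3K-like kinase that takes part in leaf vein formation, was at 5.15 and 5.31 FPKM in undigested Col-0 and 7.77 and 6.90 in undigested dbr1-2, and at 2.27 and 2.53 in digested Col-0 and 37.8 and 26.6 in digested dbr1-2. VIK overlaps AT1G14010 on the other strand, whose own ratio in dbr1-2 was 0.89. AT2G31010 (chromosome 2, 13193954 to 13200138), a protein kinase gene with 17 introns, was at 2.07 and 2.09 FPKM in undigested Col-0 and 0.934 and 0.873 in undigested dbr1-2. After digestion it was at 2.79 and 2.13 FPKM in Col-0 and 10.3 and 12.1 in dbr1-2. It was thus lower in the mutant before digestion and higher after it. The calcium-dependent kinase CDPK19 had ratios of 1.82 in dbr1-2 and −0.33 in Col-0.

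Metabolic genes included the member of highest level. AT4G20320 (chromosome 4, 10974456 to 10979627), a CTP synthase of pyrimidine metabolism, was at 17.7 and 17.6 FPKM in undigested Col-0 and 28.1 and 25.5 in undigested dbr1-2, and at 9.11 and 9.96 in digested Col-0 and 123 and 161 in digested dbr1-2. AT4G24830, the argininosuccinate synthase of arginine synthesis, was at 9.56 and 9.75 FPKM in undigested Col-0 and 10.2 and 9.96 in undigested dbr1-2, and at 6.92 and 6.28 in digested Col-0 and 47.5 and 51.6 in digested dbr1-2. APK3 (chromosome 3, 1002765 to 1005025), a kinase of sulfate assimilation, was at 1.17 and 1.23 FPKM in undigested Col-0 and 1.58 and 1.49 in undigested dbr1-2, then 1.92 and 1.92 in digested Col-0 and 10.5 and 16.0 in digested dbr1-2. In each of these, both digested dbr1-2 libraries lay above the 6 others, and AT4G20320 had the highest digested dbr1-2 mean of all members. Outside the classes, OEP16-1, a channel of the plastid outer envelope, was at 26.5 and 22.3 FPKM in undigested Col-0 and 27.4 and 24.3 in undigested dbr1-2, and at 30.2 and 29.5 in digested Col-0 and 102 and 87.3 in digested dbr1-2.

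Recombination and cell cycle gave 4 members. MCC1, an acetyltransferase that affects meiotic crossovers, and KRP6, an inhibitor of cyclin-dependent kinases, had dbr1-2 ratios of 2.04 and 2.34. AT5G20840, a phosphoinositide phosphatase gene outside the classes, was at 3.27 ± 0.30 and 4.20 ± 0.15 FPKM in Col-0 and dbr1-2 without RNase R and at 4.99 ± 0.15 and 16.6 ± 1.4 with it (SD, n = 2). The TFIIE genes, and AT4G04190 with AT4G04200, are neighbours in the annotation.

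For some members the data are thin. AT1G70209, AT5G27247 and the microRNA gene MIR169m were listed at 0 in 7 libraries and at 15.2, 13.2 and 3.69 FPKM in a single dbr1-2 library with RNase R. These 3 did not pass the filter, and no fold is given for them. After RNase R, 18 members stayed under a mean of 5 FPKM in dbr1-2, while 30 reached at least 20. AT5G20700, a senescence-associated family gene, had 164 and 53.4 FPKM in the dbr1-2 libraries with RNase R, against 36.6 and 35.5 without it. Replicate 1 was the higher of the dbr1-2 libraries with RNase R in 88 members. When each of them had to pass the threshold by itself, 91 members remained.

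In the annotation 41 members (30.1%) overlap another gene on the opposite strand and 6 (4.41%) on their own, beside 29.3% and 4.29% of the filtered genes. Of the 24 overlapping partners past the filter, SCRL7, which overlaps the T-protein family gene AT1G60990, had a dbr1-2 ratio above 1.5 (2.05), and the median over partners was −0.71. Of the members, 48 (35.3%) share their deposited interval with another locus, and their values are uncertain to that extent. The share was 19.2% of all eligible loci, which include genes below the filter, and was not computed for the filtered genes.

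At the edges of the rule the values ran on without a gap. Just inside the threshold of dbr1-2 were MYB43 (ratio 1.50007), AT2G11240 (1.5012) and MIR169m (1.5082), and just outside were emb1644 (1.49849), MTM1 (1.49612) and AT1G16825 (1.49388). Just inside the threshold of Col-0 were AT2G01175 (0.49926), AT4G30820 (0.4976) and AT1G60670 (0.49621), and just outside were SERK2 (0.50286), EMB2786 (0.50498) and AT1G01448 (0.50736). SERK2, a receptor kinase of anther development, had a dbr1-2 ratio of 3.21, so it missed the rule by its Col-0 value.

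The undigested libraries show whether these genes also differ between genotypes without RNase R. That comparison is not part of the rule, although its 4 libraries are the denominators there. In limma's moderated test on log2(FPKM + 1) over all 8 libraries, with Benjamini-Hochberg adjustment over 14351 loci, 17 of the 133 members tested were called higher in dbr1-2 (12.8%, beside 14.2% of all loci) and 2 lower (1.5%, beside 3.32%). Without adjustment, 40 members had a p under 0.05 in either direction. The share of all loci at that level was not computed, so this count is no finding about the members. The median log2 fold change was 0.15 for the members and 0.13 for all loci. Within the earlier and the later tag year it was 0.19 and 0.13 for the members, with 1 library per genotype each. For all loci it was 0.15 and 0.11. With the tag year as a covariate, 9 of 133 members were called higher (6.77%), beside 1437 of 14351 loci. The filter of 1 FPKM in 2 or more of the 8 libraries admitted 22 of the 133 members through digested dbr1-2, where the rule made them high, so the share of members called is no measure of whether they differ from other loci. Where loci had instead to reach a mean of 1 FPKM over the 4 undigested libraries, a filter chosen after seeing the data, 16 of 105 members were called higher (15.2%, beside 14.5% of 13214 loci). With the 4 undigested libraries alone it was 47 of 133 (35.3%, beside 32.8%). The share of members lay below or above that of all loci, depending on the setting. Both dbr1-2 libraries lay above both Col-0 libraries in 78 of the 136 members, beside 56.4% of the filtered genes, and below them in 15, beside 17.5%.

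**Figure D4:**
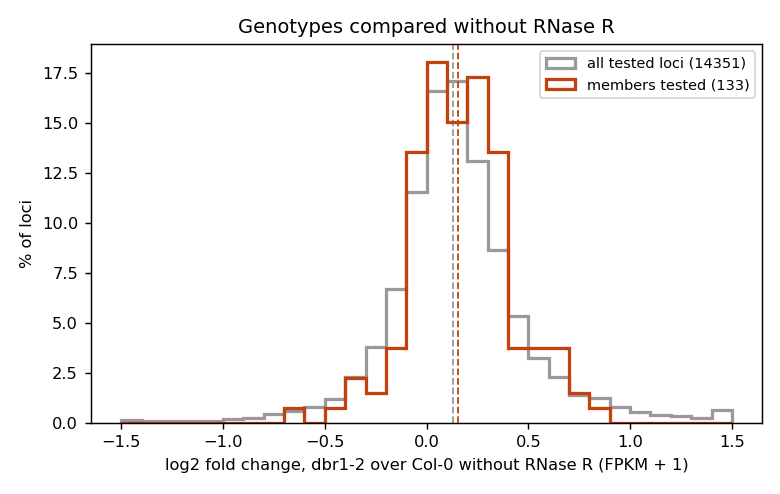
Distribution of the log2 fold change of dbr1-2 over Col-0 without RNase R, on FPKM + 1, for 133 members (orange) and all 14351 tested loci (grey), in bins of 0.1 with the outermost bins holding all values beyond; dashed lines mark the medians of 0.15 and 0.13. Members that passed the filter only through digested dbr1-2 are included.

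ABS2 had the smallest adjusted p of the members and rose by 0.71 on the log2 scale (SE 0.12, adjusted p = 0.00737 in limma). BT1 (AT5G63160), a BTB and TAZ domain protein of gametophyte development, was at 2.72 ± 0.062 FPKM in undigested Col-0 and at 4.29 ± 0.049 in undigested dbr1-2 (SD, n = 2) and rose by 0.51 (SE 0.093, adjusted p = 0.0093 in limma). The TFIIE beta gene AT4G20330 rose by 0.40, AT1G23440 by 0.77 and the uncharacterised gene AT1G78890 by 0.68 (limma adjusted p = 0.0136, 0.0138 and 0.0144). The kinase gene AT2G31010 fell by 0.70 (SE 0.12, limma adjusted p = 0.0084). AT3G18600, annotated as a nucleoside triphosphate hydrolase, fell by 0.44 from 6.0 ± 0.0053 to 4.15 ± 0.10 FPKM (limma adjusted p = 0.0155).

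Among the members named above, AT4G17010, AT4G20320, VPS60.2, SPL7, ELM1, CPB and AGD5 also rose. With the replicate number as a block, ELM1 and AGD5 lost the call (limma adjusted p = 0.0605 and 0.063), and with the tag year as a covariate VPS60.2, SPL7 and CPB lost it too (0.0532, 0.0546 and 0.0793). By contrast, AT4G27620 (0.07, limma adjusted p = 0.686), AT3G20430 (−0.01) and AT4G04200 (−0.01) did not pass the threshold. Fold changes on this scale understate the change of low genes. VGD1, the single mature pollen marker listed, was at 11.3 and 9.18 FPKM in undigested Col-0 and at 3.39 and 2.66 in undigested dbr1-2, and its part in these calls was not tested. Leaving out any 1 of the 4 undigested libraries left a single library in its group, so calls are not counted there. The median log2 fold change was then 0.131 to 0.197 for the members, beside 0.114 to 0.151 for all loci. Scaling by median ratios moved the median of all loci from 0.13 to 0.01. It left 1 member called higher, AT1G23440 (0.752% of members, beside 5.3% of all loci), and 2 lower, AT2G31010 and AT3G18600.

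How many genes meet the rule depends on the scale of the libraries, and the digested ones have far higher FPKM totals than the undigested ones. With organelle and ribosomal RNA loci removed and the rest brought to equal totals, 3 genes met the rule and 2 of them were members. With median-ratio scaling 198 genes met it, 52 of them members. With a pseudocount of 0.1 in place of 1 there were 281, with 110 members among them. The gains with RNase R are therefore relative to the deposited FPKM and not amounts of RNA.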

How the data were processed

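RNA of inflorescences was sequenced in 8 libraries (2 per group). The unit is FPKM, as deposited by the authors, with 1 value per locus and library. Per the submitters' processing notes, the tools were TopHat2 (2.0.13), Cufflinks (2.2.1) and Cuffnorm (2.2.1), with TAIR10 as the build and no order or settings. Scaling between libraries and use of the strand of the stranded kit were not given in the sources used here. Members, gene lists and tests were chosen with earlier results of these data known.

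Genes were matched by locus name to the RefSeq TAIR10.1 annotation, which gave all coordinates, structures and sequences. Low FPKM values came in whole-read steps after taking 199 nt off the transcript length: 92.9% to 99.8% were whole to within 0.05 reads. The genotype comparison without RNase R used limma (3.58.1, under R 4.3.3) and log2(FPKM + 1), with eBayes and a trend, 8 libraries and 4 residual degrees of freedom, over loci that reached 1 FPKM in 2 or more libraries, two-sided, with a Benjamini-Hochberg threshold of 0.05. Other steps used Python (3.11.15) with pandas 2.3.3, numpy 2.4.6, matplotlib 3.10.9 and scipy 1.17.1.

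Genes named are the 20 members with the largest dbr1-2 ratio and at least 5 FPKM, 3 on each side of each threshold, members called without RNase R with the smallest p (up to 5 per direction), the 5 with the longest intron inside an exon, DBR1, and members of functional classes picked after their values were seen; the text gives values for a subset. Replicate 1 and replicate 2 of both genotypes without RNase R share a tag date, and their deviations from the group means correlated at 0.30; the other pairs of groups gave −0.05 to 0.08, so the numbers do not pair all groups. Between libraries of a group Spearman's rho was 0.933 to 0.986 across loci, which are not independent replicates.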

Additional observations from a re-analysis of the deposited data

Results flagged for a closer look

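In 39 members both dbr1-2 libraries were higher with RNase R than without it while both Col-0 libraries were lower. Such a fall in Col-0 was seen in 81.2% of the 13273 nuclear genes past the filter. The share of those genes with both patterns was not computed, and members were chosen for their gain in dbr1-2, so the count is no finding. The difference between genotypes was not tested, since the rule that chose the genes fixes part of it. As the difference of the log2 ratios (dbr1-2 minus Col-0) it was 4.11 for the non-coding RNA AT1G25098, 3.79 for the PHAX-like gene AT3G20430 and 3.41 for the SPC25 gene AT4G04200. It was 3.27 for the peptidase gene AT1G23440, 3.12 for VPS60.2 (AT5G04850) and 3.08 for the TFIIE beta gene AT4G20330. Their values in all libraries stand in the report.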

How the results depend on the processing

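The number of members, 136, became 281 with a pseudocount of 0.1, 3 with organelle and ribosomal RNA loci removed and rescaling, 44 with a minimum of 2 in dbr1-2, 59 with a maximum of 0 in Col-0, and 84 where both same-numbered pairs (the replicate block) had to meet both thresholds; it was 118 to 160 with each library left out in turn, the lowest without dbr1-2 replicate 1 and the highest without replicate 2 with RNase R. For the genotypes without RNase R, 2518 loci were called. The count was 1467 with a pseudocount of 0.1, 934 with a mean of at least 5 FPKM, 1197 with median-ratio scaling, 5847 with the 4 undigested libraries alone, 2341 with the replicate block, and 819 to 864 with each undigested library left out. Members called higher, 17, became 7 with no filter, 1 with median-ratio scaling, 5 with organelle and ribosomal RNA loci removed, 47 with the 4 libraries alone, 15 with the replicate block, 9 with the tag year as covariate (chosen after seeing the data), and 0 to 1 leave-one-out. Members called lower were 2 of 133, beside 476 of 14351 loci. With the mean of at least 5 FPKM they were 1 of 63, beside 139 of 3281 loci. With organelle loci removed they were 4 of 133, beside 647 of 14213 loci. The 4 libraries alone gave 6 of 133, beside 1144 of 14351 loci. The members' median, 0.15, became 0.24 with a pseudocount of 0.1, 0.28 with the mean of at least 5 FPKM, 0.205 with a mean of at least 1 FPKM over the undigested libraries (chosen after seeing the data), 0.054 with median-ratio scaling and 0.093 with organelle loci removed. The 41.9% of members with an intron inside an exon became 65.9% among genes with at least 2 transcripts. The causes were not tested. Of the 19 calls, 16 were kept with the replicate block, 11 with the tag year and 9 with no filter. With median-ratio scaling 3 were kept, and with organelle and ribosomal RNA loci removed 4. A pseudocount of 0.1 kept 16, the mean of at least 5 FPKM 15 and the 4 undigested libraries alone 19. No called member changed direction. Of named members without a call, AT4G27620 (0.07) was at −0.04 with either rescaling, and AT1G25098 (0.37), AT3G20430 and AT4G04200 (both −0.01) changed sign with a library left out, at −0.03, 0.22 and 0.23 at most. Col-0 values with RNase R rest on the fewest reads, which limits the Col-0 ratio of low members.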
